A study of Arabidopsis thaliana with 4 samples.

Results

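Heat shock genes of Arabidopsis were examined for binding of LEAFY COTYLEDON1 (LEC1) in bent cotyledon-stage seeds, the stage at which the embryo lays down its reserves. The members were the protein-coding genes whose symbol or a synonym in the gene table starts with HSF, HSP or AtHSP and names a heat shock factor or heat shock protein. They numbered 51 of 27444 protein-coding genes on chromosomes 1 to 5. By name they fell into 21 factors, 8 small heat shock proteins (small HSPs, named by a number below 40) and 22 large heat shock proteins (large HSPs, named by a number of 60 or more). Genes for heat shock proteins to which the table gives no such name, such as BIP1 and CLPB3, were not counted. The counts per class and family below therefore depend on naming.

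The LEC1-GFP ChIP samples (2 biological replicates) came from plants homozygous for the lec1-1 mutation and for the LEC1:LEC1-GFP:LEC1 transgene, a fusion of LEC1 to green fluorescent protein. Chromatin was pulled down with an anti-GFP antibody. The input samples (2 biological replicates) were total fragmented chromatin of the same plants, so every sample shares the lec1-1 background and the transgene, and whole seeds were used without separating embryo, endosperm and seed coat. The data are 1 list of 6356 peaks for the series as a whole. There are no values per sample, so no value below carries a replicate error, the read depth is unknown, and no test was made. The authors gave each peak a score, whose scale neither the labels nor the file state. It ran from 1.92 to 4.51 with a median of 2.45, and it is used below as a rank among the peaks of this list.

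LEC1 is an NF-YB subunit of NF-Y, a complex that recognises the CCAAT box, and it controls embryo maturation. Heat shock factors are transcription factors that bind heat shock elements. Those of class A activate transcription, those of class B lack that activation domain and mostly repress, and class C is small in Arabidopsis. Their targets encode chaperones: small HSPs hold unfolding proteins, HSP70 and HSP90 fold and mature clients with the help of cochaperones, HSP60 forms folding chambers in organelles, and HSP100 proteins unfold or disaggregate. In seeds, part of this programme runs during maturation without heat, and HSFA9 is the factor best known for it.

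LEC1-GFP peaks lay in or within 1 kb of 21 of the 51 heat shock genes (41.2%, 95% exact binomial interval 27.6 to 55.8%), against 24.6% of all protein-coding genes. The factors held most of them. A peak was found at 14 of 21 factors (66.7%, 43 to 85.4%), at 1 of 8 small HSPs (12.5%, 0.316 to 52.7%) and at 6 of 22 large HSPs (27.3%, 10.7 to 50.2%). The share of the factors was thus 2.71 times that of all protein-coding genes, the share of the large HSPs was near it, and that of the small HSPs was below it. These intervals cover counting error only, treat genes as independent, and are wide for the 8 small HSPs, whose interval includes the share of all genes.

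Gene length differed between these classes and sets how much sequence is searched. The median length was 2064 bp for the factors, 1006 bp for the small HSPs and 3665 bp for the large HSPs. Among all protein-coding genes within the length range of the factors, 25.9% had a peak. The same share was 18.6% in the length range of the small HSPs and 29.3% in that of the large HSPs. Genes that carry a symbol of their own, as every member does, had a peak in 29.8% of cases. That share lies within the interval for all 51 members (27.6 to 55.8%) and below the interval for the factors (43 to 85.4%). The 24.6% used for comparison elsewhere also covers genes without such a symbol.

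**Figure D1:**
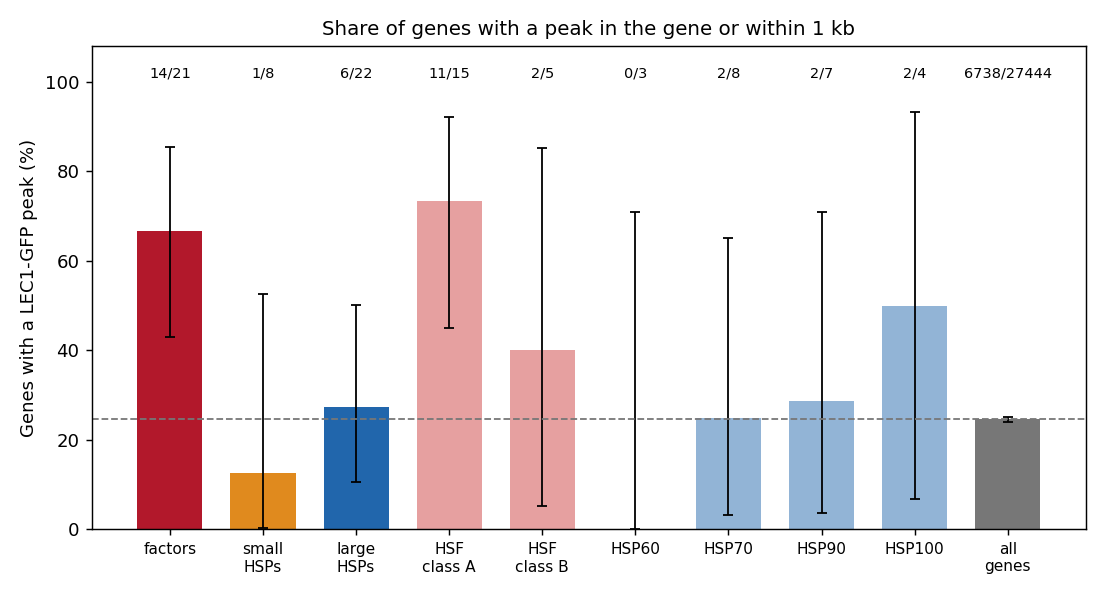
Share of genes, in percent, with at least 1 bp of a LEC1-GFP peak in the gene or within 1 kb of either end, for the 3 classes, for families within them and for all protein-coding genes. Bars start at 0, error bars are 95% exact binomial intervals, the numbers above are genes with a peak over genes in the group, and the dashed line marks the 24.6% of all genes. Factors stand at 66.7% and small HSPs at 12.5%. Class C, with HSFC1 alone, is not drawn.

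Class A factors had peaks at 11 of 15 genes (73.3%, 44.9 to 92.2%), against 24.6% of all protein-coding genes. The A1 factors, the master activators of the heat response, had peaks at 3 of 4 genes, too few to set against that share. HSFA1D had a peak with a score of 2.69 at its gene end (chromosome 1, 11660451 to 11660699), with no other protein-coding gene in reach. HSFA1E scored 2.65 (chromosome 3, 673051 to 673399), with the peak 28 bp outside the gene and 546 bp from MCC1, which it also reaches. HSF3, which is HSFA1B, had a peak 49 bp wide that scored 1.97 (chromosome 5, 5529901 to 5529949) and overlaps the neighbour AT5G16810. HSF1, which is HSFA1A, had no peak within 1 kb and gained one when the distance was widened to 2000 bp. The A1 group thus held a pair of genes with scores above the median of the list, 1 near its floor and 1 without a peak.

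HSFA2, a strongly heat-induced activator that prolongs acquired thermotolerance, had a low score of 2.11 (chromosome 2, 11135351 to 11135699). Its peak overlaps both HSFA2 and the protease gene ftsh4. HSFA3, which acts downstream of DREB2A in heat and drought, had a pair of narrow peaks inside the gene with scores of 2.11 (chromosome 5, 973851 to 973999) and 2.03 (chromosome 5, 974151 to 974249). They lie 151 bp apart and toward the gene end that faces CTR1, a kinase gene of ethylene signalling, 360 and 110 bp from it. Both genes therefore rank in the lower part of the list and share their peaks with a neighbour.

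The A6 and A7 factors, linked to abscisic acid, salt and heat, had peaks at 4 of 4 genes, against 24.6% of all protein-coding genes. With only 4 genes, the count describes these genes and is no result about the subgroup. HSFA7A had peaks at 141 and 891 bp from the gene on the same side, with scores of 2.69 (chromosome 3, 19264601 to 19264999) and 2.68 (chromosome 3, 19263951 to 19264249), and neither reached another gene. AT-HSFA7B also had a pair of peaks, 51 bp apart, with scores of 2.44 (chromosome 3, 23398501 to 23398799) and 2.43 (chromosome 3, 23398851 to 23398999), in the stretch between it and AT3G63340. HSFA6A had an inner peak that scored 2.34 (chromosome 5, 17624901 to 17625199) and an outer peak that scored 2.33 (chromosome 5, 17624201 to 17624399). The outer one overlaps AT5G43830 and the inner lies 153 bp from HSFA6A. HSFA6B had a peak 89 bp outside the gene that scored 2.22 (chromosome 3, 8078351 to 8078699) with no other gene in reach. A pair of peaks was found at 3 of these 4 genes, in each case outside the gene and on one side of it. Over all protein-coding genes 4.06% had 2 or more peaks, and among those with a peak 16.5% did. With 4 genes, this count too describes these genes only.

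HSFA9, the seed-specific factor that ABI3 activates during maturation, had 1 peak with a score of 2.53 (chromosome 5, 21943751 to 21943949). It lies 33 bp outside the gene, and no other protein-coding gene is in reach. The score puts it at rank 2768 of the 6356 peaks, slightly above the median, so HSFA9 did not lead the factors by score. HSFA8, known from redox signalling, had a higher score of 3.05 (chromosome 1, 25484251 to 25484549), rank 931. Its peak covers the gene end and overlaps POD1 as well. The A4 and A5 factors had no peak in the list: HSF A4A, a factor of salt and oxidative stress, RHA1, which is HSFA4C, and AT-HSFA5, which restrains A4 factors.

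Of the class B factors 2 of 5 had a peak (40%, 5.27 to 85.3%), an interval that includes the 24.6% of all genes. In both cases the peak lay inside the gene. HSF4, which is the repressor HSFB1, had a score of 2.68 (chromosome 4, 17441551 to 17441799), with the midpoint 476 bp from the gene end. HSFB2A had a score of 2.60 (chromosome 5, 24917151 to 24917499), with the midpoint 318 bp from the gene end. Its closest relative AT-HSFB2B had none. HSFB3 had none, nor had HSFB4, known as SCHIZORIZA in root patterning.

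HSFC1, the only class C factor, had the highest score of all heat shock genes. Its peak at 176 bp outside the gene scored 3.33 (chromosome 3, 8943051 to 8943549), rank 443 of 6356, and was 499 bp wide. A further peak near the opposite end, with its midpoint 209 bp inside the gene, scored 2.51 (chromosome 3, 8941201 to 8941349). The peaks are 1701 bp apart, and no other protein-coding gene is within 1 kb of either.

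**Figure D2:**
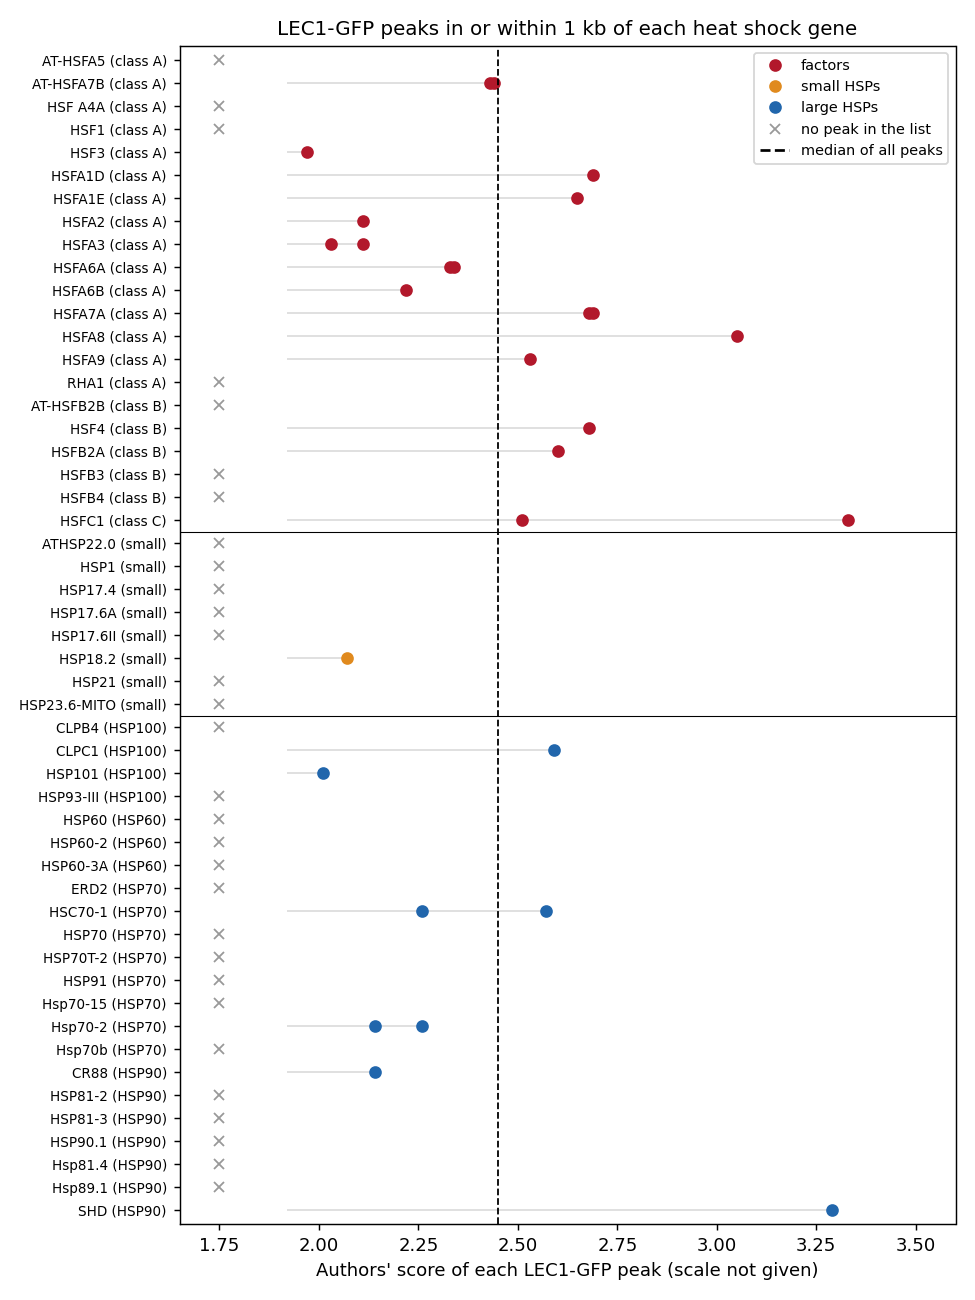
The authors' score of each LEC1-GFP peak (horizontal axis, scale not given) at each of the 51 heat shock genes (rows, grouped as factors, small HSPs and large HSPs, with the family in brackets). Each filled circle is a peak, a grey cross marks a gene without a peak in the list, and the dashed line is the median of all peaks, 2.45. HSFC1 with 3.33, SHD with 3.29 and HSFA8 with 3.05 stand to the right of the rest, and crosses fill most rows of the small and large HSPs.

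A peak was listed at 1 of the 8 small HSPs (12.5%), against 18.6% of all genes in their length range, so the count is no result about the class. The gene was HSP18.2, which encodes a cytosolic class I protein, with a score of 2.07 (chromosome 5, 24064101 to 24064199). That peak is 99 bp wide, lies 800 bp outside the gene and overlaps the neighbour EXO70H7, so it cannot be given to HSP18.2 alone. HSP17.4, known to accumulate in maturing seeds, had no peak within 1 kb. The class II genes HSP17.6II and HSP17.6A, which lie side by side on chromosome 5, had none. The organelle proteins HSP21 of the chloroplast, HSP23.6-MITO of mitochondria and ATHSP22.0 of the endoplasmic reticulum had none, and neither had HSP1, an HSP20-like protein. The list holds only peaks the authors called, so a gene without one may still have had signal below their threshold, which no label states.

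HSP90 genes had peaks at 2 of 7 (28.6%, 3.67 to 71%), near the 24.6% of all genes. SHD, the HSP90 of the endoplasmic reticulum that the CLAVATA pathway needs, had the highest score of any heat shock protein gene, 3.29 (chromosome 4, 12555901 to 12556399), rank 493. The peak is 499 bp wide and overlaps both SHD and AT4G24200. CR88, the chloroplast HSP90, had a low score of 2.14 at its gene end (chromosome 2, 1281651 to 1281799), with no other gene in reach. The cytosolic HSP90 genes HSP90.1, which heat induces, and HSP81-2, HSP81-3 and Hsp81.4, which lie together on chromosome 5, had none, and the mitochondrial Hsp89.1 had none.

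HSP70 genes among the members had peaks at 2 of 8 (25%, 3.19 to 65.1%), near the 24.6% of all genes. These 2 lie next to each other on chromosome 5. The count leaves out HSP70 genes under other names, which are given below. Of those, BIP1, BIP2, BIP3, cpHsc70-2 and mtHsc70-2 had a peak, and cpHsc70-1 and mtHsc70-1 had none. HSC70-1, a cytosolic HSP70 made without heat, had a score of 2.57 at one gene end (chromosome 5, 556551 to 556799). A peak with a score of 2.26 (chromosome 5, 552751 to 553099) lies between HSC70-1 and Hsp70-2. It overlaps the end of Hsp70-2 and is 645 bp from HSC70-1. Hsp70-2 had a further peak inside its other end with a score of 2.14 (chromosome 5, 550051 to 550199), 54 bp from AT5G02480. The heat-induced HSP70 and Hsp70b had no peak. ERD2 (HSP70T-1), HSP70T-2 and the neighbours HSP91 and Hsp70-15, which belong to the HSP110 branch, had none.

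HSP100 genes had peaks at 2 of 4 (50%, 6.76 to 93.2%), an interval that includes the 24.6% of all genes. CLPC1, an unfoldase of the chloroplast stroma, had a score of 2.59 at its gene end (chromosome 5, 20720651 to 20720949), with no other gene in reach, whereas its paralog HSP93-III had none. HSP101, the cytosolic disaggregase needed for acquired thermotolerance, had a peak 99 bp wide that scored 2.01 (chromosome 1, 27940201 to 27940299), rank 5966 and so near the floor of the list. CLPB4 of mitochondria had none. The HSP60 genes HSP60, HSP60-2 and HSP60-3A, mitochondrial chaperonins, had peaks at 0 of 3 (0 to 70.8%). That interval includes the share of all genes as well. Copies such as the HSP81 genes, the cytosolic HSP70 genes or the HSP17.6 pair are alike in sequence. No label or file header says what was done with reads that map to several places, and the lack of a peak at such copies is uncertain.

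The heat shock genes had 27 distinct peaks between them, 49 to 499 bp wide. Of these, 19 lay at factors, 1 at a small HSP and 7 at large HSPs. The median score was 2.51 at the factors and 2.26 at the large HSPs, against 2.45 for all peaks. Of the 27 peaks, 13 were among the 3178 peaks with the highest scores, 3 among the highest 1589 and 2 among the highest 635. The highest score per gene had a median of 2.56 for the 14 factors with a peak, 2.41 for the 6 large HSPs and 2.51 for all protein-coding genes with a peak. The scores at the factors thus lay around the middle of the list.

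Several peaks at 1 gene were found at 5 of the 14 factors with a peak (35.7%) and at 2 of the 6 large HSPs (33.3%), against 16.5% of all genes with a peak. Those large HSPs are the neighbours HSC70-1 and Hsp70-2. The peak between them is counted for both, so they are not separate cases. No interval was computed for the 35.7% and 33.3%, which rest on 14 and 6 genes. No difference from the 16.5% is claimed. Over all protein-coding genes 4.06% had 2 or more peaks. The factors with 2 peaks were HSFA3, HSFA6A, HSFA7A, AT-HSFA7B and HSFC1. Gaps between their peaks were 151, 501, 351, 51 and 1701 bp in that order. The starts of all peaks lie on a 50 bp grid, and neighbours 51 bp apart were separated by about a single step of it.

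Most peaks at heat shock genes lay close to a gene end. Of the 28 pairs of a member and a peak, 21 had the midpoint outside the gene and 7 inside (75% outside, against 72.4% over all genes). Midpoints lay within 500 bp of the nearest gene end in 16 of 19 pairs at factors (84.2%) and 7 of 8 pairs at large HSPs (87.5%), against 67.2% over all genes. At the factors 7 of 21 genes were overlapped by a peak themselves (33.3%), against 12.5% of all protein-coding genes. At the large HSPs 6 of 22 genes were (27.3%). The gene table used gives no strand, so promoters and downstream flanks are not told apart.

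**Figure D3:**
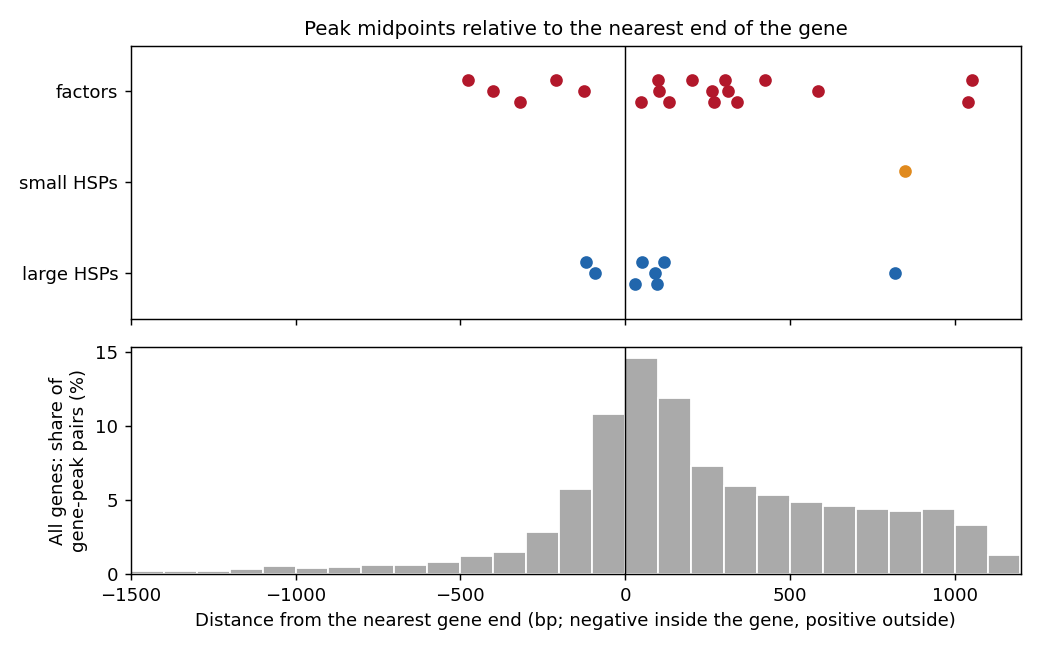
Distance in bp from each peak's midpoint to the nearest end of the gene, negative inside the gene and positive outside. Upper panel: each point is a pair of a peak and a factor, small HSP or large HSP gene, spread vertically only for legibility. Lower panel: share of the 8013 gene-peak pairs of all protein-coding genes in bins of 100 bp. Factor peaks extend over 500 bp to both sides of the gene end with 3 beyond it, and 7 of the 8 large HSP points lie within 200 bp of 0.

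Neighbouring genes often share a peak in this compact genome. A peak that reached no other protein-coding gene was found at 5 of the 21 factors (23.8%), 3 of the 22 large HSPs (13.6%) and 0 of the 8 small HSPs, against 9.43% of all genes. The factors were HSFA1D, HSFA6B, HSFA7A, HSFA9 and HSFC1, and the large HSPs were CLPC1, CR88 and HSC70-1. Among genes with a peak, 64.3% of factors and 50% of large HSPs had all their peaks shared, near the 61.6% over all protein-coding genes. Giving each peak to its nearest gene alone took the peak from HSF3, HSFA2, HSFA8 and HSP18.2. It left 52.4% of factors, 0% of small HSPs and 27.3% of large HSPs with a peak, against 17.3% of all genes.

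The share of the factors was above that of the large HSPs, and above that of all genes, in each of the 13 ways of assigning peaks, the main one included. The ratio of factors to all genes ran from 1.35 to 3.27. It was lowest for the 1589 peaks with the highest scores, where 2 of 21 factors (9.52%, 1.17 to 30.4%) and 7.03% of all genes had a peak. That interval includes the share of all genes. So does the one for peaks that reach 1 protein-coding gene (23.8%, 8.22 to 47.2%, against 9.43%). The 13 ways draw on the same peaks and are not independent of each other. With 500 bp in place of 1 kb, 66.7% of factors had a peak against 20.4% of all genes, and with 2000 bp 71.4% did against 31.5%. Requiring the midpoint or 50% of the peak to lie in the window gave 66.7% of factors against 23.6% of all genes. The small HSPs stood below the large HSPs in 12 of the 13. With members taken by symbol only, both had 12.5%. The large HSPs stood above all genes in 10 of the 13, by 27.3% against 24.6% in the main one, so no difference from all genes is claimed for them.

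**Figure D4:**
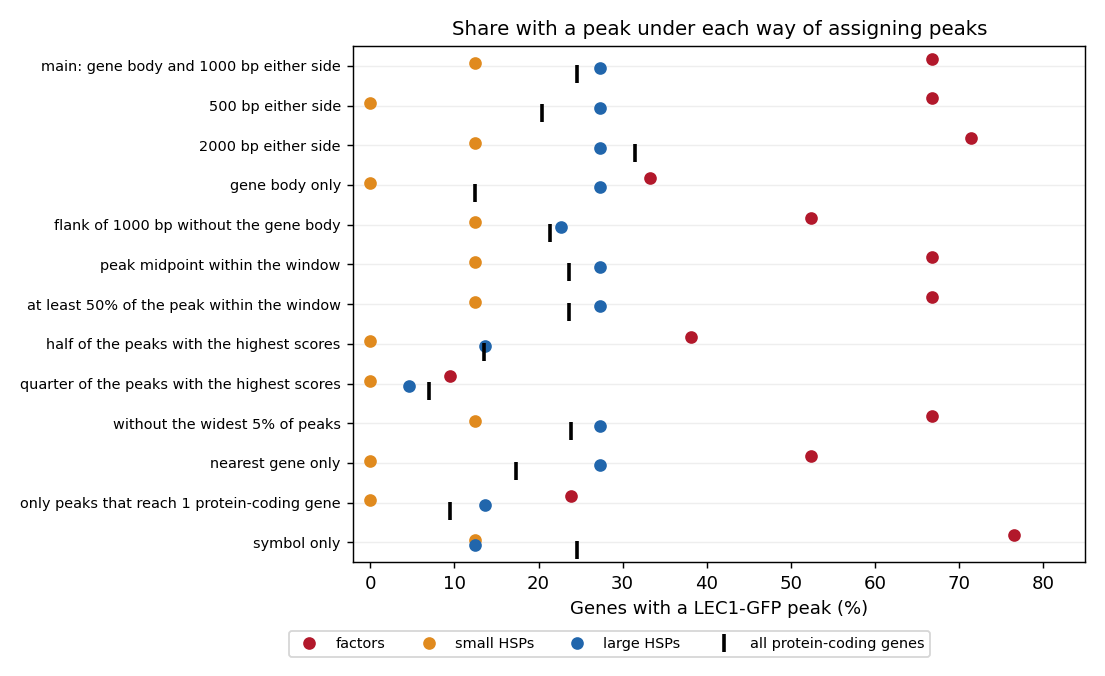
Share of factors, small HSPs and large HSPs (circles, percent) with a LEC1-GFP peak under each of 13 ways of assigning peaks to genes (rows), with the share of all protein-coding genes under the same rule as a black tick. The factor circle is right of the tick in every row, nearest to it at 9.52% against 7.03%. No error bars are drawn.

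Genes that work with the heat shock factors and chaperones without bearing their names were described as well. The list had 49 names, of which 43 were matched and were not members. A peak was found at 22 of the 43 (51.2%, 35.5 to 66.7%), against 24.6% of all genes. Some of them, such as ABI3, ABI5 and GOLS2, are seed genes already known to have a peak when the list was drawn up, so the count is no independent support.

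Regulators had peaks at 8 of 10 (80%, 44.4 to 97.5%), against 24.6% of all genes, and ABI3 and NF-YA2 were those with a peak that reached no other protein-coding gene. These 10 were picked with earlier results of these data known and include the seed or NF-Y genes ABI3, ABI5, DOG1, NF-YA2 and NF-YB3. The count is therefore no result about regulators of the heat response. DREB2A, which activates HSFA3, had a highest score of 3.33, and its relative DREB2C had none. ABI3, the activator of HSFA9, had a highest score of 3.34, and ABI5 of the abscisic acid response had 3.41. NF-YB3, an NF-Y subunit that acts with DREB2A in heat, had 3.15 and NF-YA2 had 2.01, while NF-YC10 had none. The coactivator MBF1C had 2.48, HSBP, which binds and restrains heat shock factors, had 2.41, and the dormancy regulator DOG1 had 2.47.

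Known targets of heat shock factors outside the chaperone families had peaks at 5 of 5 (100%, 47.8 to 100%), against 24.6% of all genes, with GOLS2 among them. These 5 were picked with earlier results of these data known, so the count describes them and is no result about such targets. GOLS1 and GOLS2, which make galactinol, had scores of 2.40 and 3.17. The ascorbate peroxidases APX1 and APX2 had 2.95 and 2.63, and HSA32, which prolongs thermotolerance, had 2.09. The peaks of APX1, APX2 and HSA32 also reached a neighbouring gene.

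Other chaperones had peaks at 6 of 12 (50%, 21.1 to 78.9%), an interval that includes the 24.6% of all genes. Of these, BIP1 had a peak that reached no other gene. The endoplasmic reticulum HSP70 genes BIP1, BIP2 and BIP3 had scores of 2.49, 2.32 and 2.88. CLPB3 of the chloroplast had 2.56, the mitochondrial mtHsc70-2 had 2.59 and the chloroplast cpHsc70-2 had 2.00. The chaperonin genes CPN60A, CPN60B, CPN10 and CPN20 had none, nor had cpHsc70-1 and mtHsc70-1. Cochaperones had peaks at 3 of 16 (18.8%, 4.05 to 45.6%), an interval that also includes the share of all genes. They were TMS1 with 2.96, BAG7 with 2.55 and CHIP with 2.28, all shared with a neighbour. Those without were ROF1, ROF2, HOP1, HOP2, HOP3, SGT1A, SGT1B, RAR1, FES1A, BAG6, BOB1, J2 and J3.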

How the data were processed

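ChIP and input chromatin of bent cotyledon-stage seeds were sequenced. SAMtools 0.1.19, Bowtie 0.12.7 and the genome build TAIR10 are named in the submitters' processing notes. Neither these nor the labels name a peak caller or threshold, or say whether duplicates were removed or replicates pooled. The authors deposited 1 peak list with a position and a score per peak. Starts were raised by 1 to count from 1.

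Genes came from a RefSeq table of TAIR10.1. Peak midpoints lay inside genes in 34% of cases in place and in 64% and 62.7% after moving peaks by 10000 bp to either side, so positions of both builds were used together. Names of 3 genes (BRK1, HSPRO2, HIP1) that begin like a member's but name another protein were set aside, and HSF A4A, written with a blank, was kept. A gene had a peak with at least 1 bp overlap of the gene or its flanks of 1000 bp. Every member is named, with values where it has a peak. Python 3.11.15, pandas 2.3.3 and SciPy 1.17.1 were used, and the overlap code was tested on simulated data. Intervals are exact binomial at 95%. Members, lists and alternatives were chosen with earlier results of these data known. Promoter motifs had been planned and were not analysed here.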

Additional observations from a re-analysis of the deposited data

How the results depend on the processing

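No paired analysis was possible because the peak list holds no values per sample, and for the same reason no replicate was left out. A share counts as moved where it left the exact binomial interval of the main share. With the gene body only, 25.5% of all members, 33.3% of factors and 0% of small HSPs had a peak, against 12.5% of all genes. With the 3178 peaks of highest score the shares were 21.6% of all members, 38.1% of factors and 0% of small HSPs, against 13.5% of all genes. With the highest-scoring 1589 they were 5.88% of all members, 9.52% of factors, 0% of small HSPs and 4.55% of large HSPs, against 7.03% of all genes. Counting only peaks that reach 1 protein-coding gene, an alternative chosen after seeing the data, gave 15.7% of all members, 23.8% of factors and 0% of small HSPs, against 9.43%. A distance of 500 bp and the nearest gene alone also gave 0% of small HSPs, since their single peak lies 800 bp from HSP18.2 and overlaps EXO70H7. The share of all genes was lower under each of these rules than under the main one. The other settings gave 52.4 to 76.5% for factors, 33.3 to 43.1% for all members and 12.5 to 27.3% for large HSPs. Leaving out HSF A4A (70% of factors) or HSP1 (14.3% of small HSPs), also chosen after seeing the data, moved little. Depth per library is unknown, so a weak site missing from the list cannot be told from an absent one.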
